A study of Mus musculus with 30 samples.

Results

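Alpha granules are the storage granules that platelets empty when they are activated, and 10 genes whose products are kept in them or act in clotting beside them are described here: F13a1, Vwf, Thbs1, Sparc, F5, Mmrn1, Selp, Clu, Serpine2 and Srgn. They were taken by symbol, after the Ensembl identifiers of both count tables had been matched to mouse symbols in GENCODE M21 (genome build GRCm38), and all 10 were found among 54532 counted genes. RNA was sequenced from platelets and from peripheral blood mononuclear cells (PBMCs) of female C57BL/6 mice, 6 to 8 weeks old at the start per the study's methods. Every mouse had an injection under the skin of the right flank. C group (labelled ctrl) was given Hanks' balanced saline (HBSS) alone. S group (suboptimal inoculation, labelled early tumor) was given 2000 cells and O group (optimal inoculation, labelled large tumor) 100000 cells of B16F10, a mouse melanoma line, in the same saline. Blood was taken on day 14, and the PBMCs came from the layer left after the platelet-rich plasma had been drawn off. Each of the 6 combinations of group and tissue had 5 libraries, and each library pooled several mice: 5 to 10 in C group, 10 in S group and 3 to 5 in O group for platelets, and 5, 4 to 5 and 3 to 5 for PBMCs, as the labels give it, though the study's methods give sizes for S group platelet pools that differ slightly. S group was pooled without it being known which of its mice would have formed a tumor, and the study states that some may never have done so. P values here measure the spread between pools.

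Platelets have no nucleus. Their RNA is what the megakaryocyte passed on, and their granule proteins are made in the megakaryocyte or taken up from plasma. On activation the granules release adhesive proteins such as von Willebrand factor and thrombospondin-1, the clotting cofactor factor V, and protease inhibitors, while their membrane brings P-selectin to the surface, where leukocytes bind it. Several of the same genes are also used by other cells: F13a1 by monocytes and macrophages, Srgn by most blood cells, Vwf and Selp by endothelium, and Sparc by fibroblasts and endothelium.

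Library totals on genes ran from 12259036 to 25360080 in platelets and from 13390983 to 15973449 in PBMCs, so that each member had at least 110 counts in every platelet library, while in PBMCs Sparc (0 to 27 counts), Serpine2 (30 to 199) and Selp (41 to 218) had few enough for counting error to weigh beside the spread between pools. Hemoglobin genes took 4.02% to 39.0% of platelet counts and 3.23% to 24.5% of PBMC counts, the highest share in each tissue being that of O group pool 1. The platelet label fitted its markers: 9 of 9 tested platelet markers were higher in platelet than in PBMC libraries, with a median log2 difference of 4.53, and 10 of 10 monocyte markers lay lower, 9 of them called. Fibroblast and endothelial markers, most of which were under 1 CPM in PBMCs and so are described without a test, were present in the platelet libraries at summed levels of 34.7 to 163 and 54.7 to 156 CPM (counts scaled to a common library size by edgeR), against 8634 to 48328 CPM for the 10 platelet markers. In PBMC libraries the platelet markers summed to 741 to 10220 CPM, so platelet RNA was present in every PBMC pool and its amount differed widely between pools. In bulk RNA of this kind, fewer cells of a type and less RNA per cell cannot be told apart.

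The promoters of 4 members are shown because they set side by side the neighbours Selp and F5, the co-varying Serpine2, and Sparc, which did not follow the other members. Windows run from 250 bases before to 50 after a RefSeq start site (GRCm38.p6), read 5′ to 3′ on the gene's strand, and capitals mark the letters AGGAAG, a core of ETS factor sites, or their reverse complement CTTCCT.
Selp, chr1:164115014-164115313, plus strand: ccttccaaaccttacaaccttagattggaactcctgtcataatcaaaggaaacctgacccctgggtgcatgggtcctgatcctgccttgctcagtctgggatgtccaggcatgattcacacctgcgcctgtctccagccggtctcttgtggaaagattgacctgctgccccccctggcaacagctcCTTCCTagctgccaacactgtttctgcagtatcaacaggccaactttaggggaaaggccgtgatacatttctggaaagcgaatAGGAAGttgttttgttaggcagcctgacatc
F5, chr1:164151585-164151884, plus strand: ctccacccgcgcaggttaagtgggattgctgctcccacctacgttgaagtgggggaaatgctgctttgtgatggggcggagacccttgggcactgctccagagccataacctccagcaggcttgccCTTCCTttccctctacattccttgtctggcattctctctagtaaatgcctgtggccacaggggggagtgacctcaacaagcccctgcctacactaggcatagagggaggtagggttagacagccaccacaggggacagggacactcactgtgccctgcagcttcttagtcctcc
Serpine2, chr1:79858616-79858915, minus strand: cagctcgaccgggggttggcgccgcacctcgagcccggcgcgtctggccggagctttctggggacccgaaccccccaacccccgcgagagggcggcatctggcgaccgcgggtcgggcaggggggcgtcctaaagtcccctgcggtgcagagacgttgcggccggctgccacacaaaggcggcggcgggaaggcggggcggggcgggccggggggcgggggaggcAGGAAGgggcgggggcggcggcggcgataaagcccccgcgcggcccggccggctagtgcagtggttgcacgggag
Sparc, chr11:55420031-55420330, minus strand: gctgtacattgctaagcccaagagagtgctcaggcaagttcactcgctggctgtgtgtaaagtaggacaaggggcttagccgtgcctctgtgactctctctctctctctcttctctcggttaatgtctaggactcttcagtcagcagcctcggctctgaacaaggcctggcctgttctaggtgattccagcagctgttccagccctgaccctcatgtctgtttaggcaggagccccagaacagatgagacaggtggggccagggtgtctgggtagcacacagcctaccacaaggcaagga
The motif stood at -64 and +20 of the Selp start, at -124 of F5 and at -25 of Serpine2, and the Sparc window did not hold it. Windows were at hand for 7 members, 9 windows in all, and 5 of the 9 held AGGAAG on either strand, against 35.4% of 32851 windows of the same length. The GATA letters AGATAA or TGATAA stood in 1 of the 9, that of Mmrn1, at -34, against 18.6% of all windows. Such matches describe the letters only.

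Selp and F5 are neighbours on chromosome 1, both on the plus strand and 1811 bases apart, Selp from 164115264 to 164150026 and F5 from 164151838 to 164220277. The others lie apart: Serpine2 on the same chromosome at 79794197 to 79861180 (minus strand), Thbs1 on chromosome 2 at 118111876 to 118127133 (plus), Mmrn1 on chromosome 6 at 60924976 to 60989378 (plus), Vwf on chromosome 6 at 125546774 to 125686679 (plus), Srgn on chromosome 10 at 62493833 to 62527451 (minus), Sparc on chromosome 11 at 55394500 to 55423183 (minus), F13a1 on chromosome 13 at 36867178 to 37050244 (minus) and Clu on chromosome 14 at 65968483 to 65981547 (plus). All 10 are protein-coding, and the counts are sums over their exons.

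Levels between genes were compared per length, as CPM per kilobase of exon (RPKM), over the 15 platelet libraries. Clu, which encodes the chaperone clusterin, stood first with 1183 ± 539 RPKM (SD, n = 15). Srgn, the granule proteoglycan serglycin, followed with 661 ± 258 RPKM, and Thbs1, the adhesive glycoprotein thrombospondin-1, with 284 ± 92.8 RPKM. F5 (factor V) at 162 ± 70.2 RPKM and Vwf (von Willebrand factor) at 141 ± 62.9 RPKM differed by less than their spread. So did Mmrn1, whose product multimerin 1 binds factor V, at 75.5 ± 28.1 RPKM and F13a1, the A subunit of factor XIII that cross-links fibrin, at 68.2 ± 37.2 RPKM. Sparc (a collagen-binding matrix protein, 10.5 ± 4.24 RPKM), Serpine2 (protease nexin-1, a thrombin inhibitor, 9.29 ± 3.89 RPKM) and Selp (P-selectin, 9.07 ± 4.88 RPKM) lay together at the low end. By CPM, Clu ranked 24 among all genes of the platelet libraries, Vwf 45, Thbs1 61, Srgn 70 and F5 87, while Sparc ranked 2401.

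**Figure D1:**
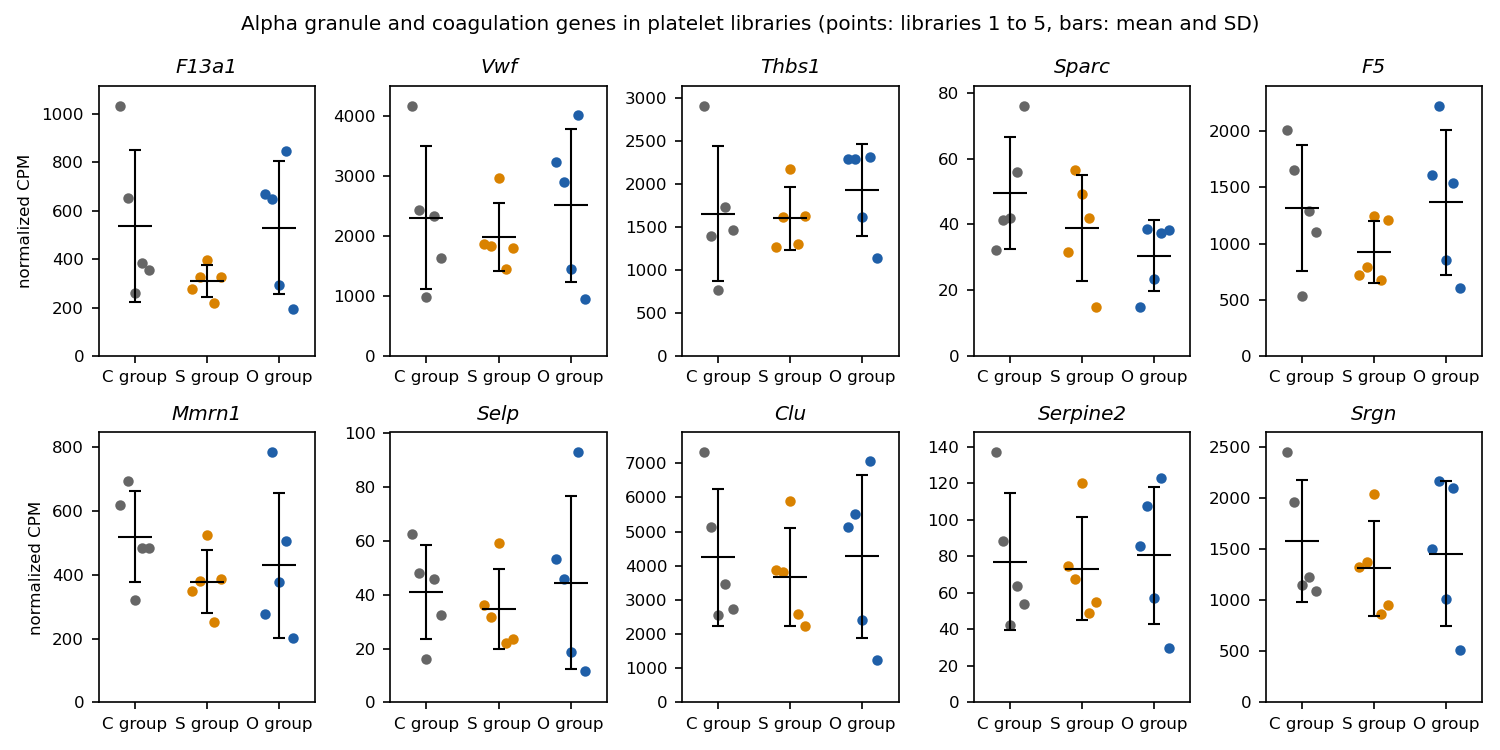
Level of each of the 10 genes in the 15 platelet libraries, as TMM-normalized CPM on a linear axis, by group (5 pools each, points) with bars for the group mean and SD. The groups overlap for every gene, and pools of C group and O group spread more widely than those of S group for F13a1 and Vwf.

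In PBMC libraries the order per length differed. Srgn was first with 222 ± 66.3 RPKM (SD, n = 15) and Clu second with 125 ± 82.0 RPKM. Thbs1 was at 92.7 ± 64.8, F13a1 at 42.1 ± 17.9, F5 at 35.0 ± 20.4 and Vwf at 19.3 ± 15.4 RPKM, each overlapping its neighbour. F13a1 thus ranked 4 of the 10 in PBMCs and 7 in platelets. Mmrn1 (10.5 ± 4.39 RPKM), Selp (1.9 ± 1.5) and Serpine2 (1.07 ± 0.712) were low, and Sparc was near 0 at 0.129 ± 0.109 RPKM, with 0 to 27 counts per library.

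Of the 10 genes 9 also passed the filter on low counts within PBMC libraries, and these 9 were higher in platelet libraries (adjusted P under 0.05 in edgeR, beside 81% of 16498 genes called in either direction), whereas the median gene lay at -0.17 on the log2 scale. CPM in this comparison was normalized over all 30 libraries, and group was a covariate. Sparc had 21.2 to 119 CPM (median 62.9) in platelets and 0 to 1.04 CPM (median 0.208) in PBMCs, and since it passed the filter on low counts only through the platelet libraries, its fitted log2 difference of 7.55 is a description with no test. Clu ranged from 2032 to 11602 CPM in platelets and from 63.9 to 728 CPM in PBMCs, a log2 difference of 4.52 (SE 0.317, adjusted P 5.84e-14). The ranges of both genes lay wholly apart between the tissues. Serpine2 (4.43, SE 0.273), Vwf (4.19, SE 0.302), Mmrn1 (4.10, SE 0.231), Selp (3.58, SE 0.308), F5 (3.48, SE 0.247), Thbs1 (2.98, SE 0.223) and Srgn (2.83, SE 0.193) followed on the log2 scale, and their ranges did not overlap either. F13a1 differed least, at 1.93 (SE 0.213, adjusted P 1.39e-09), and it was the one gene whose ranges overlapped, with 316 to 1553 CPM in platelets and 87.1 to 396 CPM in PBMCs. The platelet markers themselves differed by 3.48 to 4.81 on this scale, a range that held Clu, Serpine2, Vwf, Mmrn1, Selp and, at its lower edge, F5, while Thbs1, Srgn and F13a1 lay under it and Sparc above it.

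**Figure D2:**
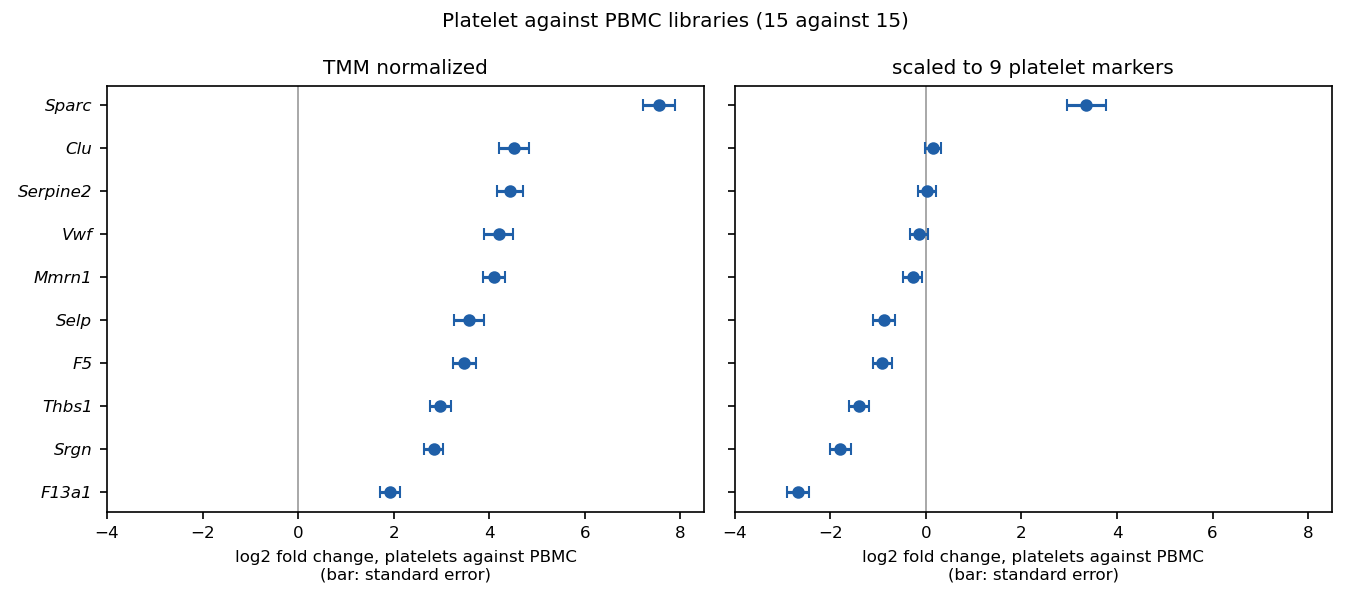
Log2 difference between platelet and PBMC libraries (15 each) for the 10 genes, with bars of 1 standard error, under TMM normalization and after scaling every library to its platelet markers. F13a1 is lowest on both scales and Sparc highest, and Clu, Serpine2, Vwf and Mmrn1 lie near 0 after scaling.

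To ask which genes were carried in PBMC libraries in the proportion that platelets carry them, each library was scaled to the geometric mean of 9 platelet markers with at least 10 counts in every library, a step chosen after the data had been seen. On that scale the median gene moved by -4.48 (log2) to -4.65, and 96.1% of 16498 genes were called. Of those called, 271 were higher in platelets and 15582 in PBMCs. Among the 9 genes other than Sparc 5 were called. Clu (0.15, SE 0.173, adjusted P 0.385), Serpine2 (0.03, SE 0.193, adjusted P 0.876), Vwf (-0.14, SE 0.181, adjusted P 0.437) and Mmrn1 (-0.27, SE 0.196, adjusted P 0.178) did not pass the test, so that a difference between the tissues beyond the platelet share was not detected for them. Relative to the platelet markers, F13a1 was 6.37-fold more abundant in PBMC than in platelet libraries (log2 -2.67, SE 0.234, adjusted P 3.21e-14). Srgn (-1.79, SE 0.221, adjusted P 4.89e-10), Thbs1 (-1.40, SE 0.208, adjusted P 3.92e-08), F5 (-0.91, SE 0.202, adjusted P 5.71e-05) and Selp (-0.87, SE 0.223, adjusted P 0.000361) were likewise more abundant in PBMC libraries on this scale. The differences of these genes and of F13a1 were smaller in size than that of the median gene. Sparc, again as a description, had a fitted value of 3.35. The ratio of Clu to the markers was steady within each tissue, with a log2 ratio of 1.11 ± 0.132 (SD, n = 15) in platelets and 0.96 ± 0.0956 in PBMCs. That of F13a1 was -2.06 ± 0.346 in platelets and 0.52 ± 0.621 in PBMCs, and that of Sparc had the largest SD in both tissues, 0.886 and 1.17.

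The members other than Sparc varied together from pool to pool. Pearson's r of log2(CPM + 1) over the 15 platelet libraries lay between 0.539 and 0.974 for the 36 pairs among the other 9 genes (median 0.850), and Spearman's rho between 0.611 and 0.979. All 36 passed in both measures, by permutation tests adjusted over all 45 pairs, and r lay between 0.488 and 0.953 after the 2 libraries farthest from the median were left out. Within groups the median r was 0.882. The weakest of these pairs was Thbs1 with Mmrn1 and the strongest Clu with Srgn. On library totals alone, without TMM, r ran from 0.279 to 0.925 (median 0.690). For comparison, the median r over all pairs of 6413 genes at 10 CPM or more was -0.013. Depth and the level of platelet markers differed between the libraries, and their part in these pairs was not tested. The 9 pairs with Sparc lay between -0.205 and 0.258 and none passed by r or by rho.

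**Figure D3:**
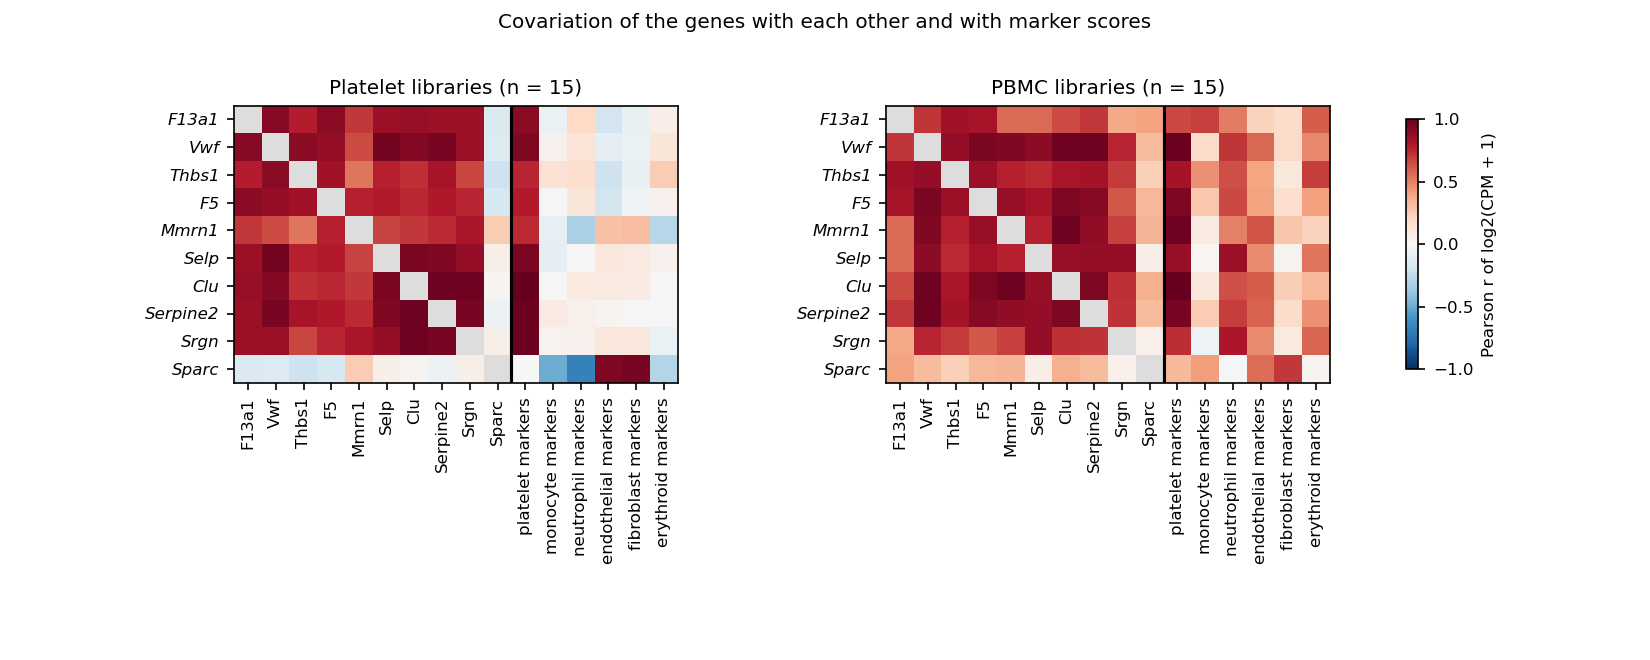
Pearson's r of log2(CPM + 1) between the 10 genes, and between each gene and 6 marker scores (right of the black line), over 15 platelet libraries and 15 PBMC libraries. Sparc stands apart from the block of the other 9 genes in platelets and goes with the fibroblast (0.950) and endothelial (0.932) scores.

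Each gene was then set against 6 marker scores, the mean log2(CPM + 1) of a marker list, making 60 relations per tissue, a step also chosen after the data had been seen. In platelets the 9 genes other than Sparc followed the platelet score, from r 0.745 (Mmrn1, adjusted permutation P 0.00835) to 0.993 (Clu, adjusted permutation P 8.57e-05, the value that the smallest P of 100000 resamples takes after adjustment). They passed with no other score. Sparc had r 0.005 with the platelet score (adjusted permutation P 0.998). With the fibroblast score it had r 0.950 and rho 0.929 (adjusted permutation P 8.57e-05, r 0.886 without the 2 farthest libraries and 0.959 within groups), and with the endothelial score r 0.932 and rho 0.904 (adjusted permutation P 8.57e-05, r 0.816 without the 2 farthest libraries). Its r of -0.675 with the neutrophil score (adjusted permutation P 0.0224) fell to -0.375 without the 2 farthest libraries and so rests on them.

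The genes most alike to each member over the platelet libraries, among 6406 genes at 10 CPM or more, are given as a description. Sparc was closest to Cav1 (r 0.950), Col1a2 (0.931), a collagen I chain, and Wwtr1 (0.931). Vwf was closest to Slc24a3 (0.996), Mrvi1 (0.986) and Gp1ba (0.985), the last being the platelet receptor subunit that binds von Willebrand factor. Clu was closest to Ap2m1 (0.993), Treml1 (0.993) and BC031181 (0.990), Serpine2 to Alox12 (0.990), Pttg1ip (0.989) and Ptgs1 (0.987), and Srgn to Itm2b (0.990), Clec1b (0.989) and Laptm4a (0.988). Treml1, Clec1b, Alox12 and Ptgs1 are known platelet genes. Mmrn1 was closest to Pnpla8 (0.972), Rab27b (0.967), a small GTPase of granule release, and Hacd4 (0.965), and the genes close to Thbs1 included the platelet tubulin Tubb1 (0.948) and Apcdd1 (0.946). F13a1 was closest to Itfg1 (0.948), Rab6a (0.947) and Ssr3 (0.940), F5 to Cald1 (0.972), Dlg2 (0.966) and Cdc42bpa (0.956), and Selp to Itgb2 (0.970), Emc3 (0.965) and Slc24a3 (0.964).

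In PBMC libraries the 36 pairs without Sparc had a median r of 0.831, and 35 passed by r and 30 by rho. The pair that failed by r was F13a1 with Srgn (r 0.379). Against the platelet score Clu had r 0.996, Vwf 0.979 and Mmrn1 0.975, while F13a1 had 0.657 (adjusted permutation P 0.0352), falling to 0.263 without the 2 farthest libraries and so resting on them. F13a1 had r 0.680 and rho 0.525 with the monocyte score (adjusted permutation P 0.0354 for r and 0.135 for rho, r 0.538 without the 2 farthest libraries and 0.589 within groups). With the erythroid score Thbs1 (r 0.692, rho 0.514, adjusted permutation P 0.0221 for r) and F13a1 (r 0.607, rho 0.293, adjusted permutation P 0.0488 for r) passed by r and not by rho, and r fell to 0.204 and 0.147 without the 2 farthest libraries, on which it rests. With the neutrophil score 7 members passed by r, from 0.644 (Thbs1) to 0.864 (Selp, adjusted permutation P 6e-04), and 1 of them also by rho, Srgn (r 0.809, adjusted permutation P 0.00393, rho 0.671, r 0.687 without the 2 farthest libraries). Selp kept r 0.607 without the 2 farthest libraries, and the other 5 fell to between 0.0735 and 0.270, so that their relation rests on those libraries. The endothelial and fibroblast scores rest in PBMCs on markers mostly under 1 CPM, so their relations are a description. With the endothelial score r ran from 0.227 (F13a1) to 0.625 (Mmrn1), with Clu at 0.605. With the fibroblast score it ran from 0.0344 (Selp) to 0.705 (Sparc).

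Groups were compared in pairs within a tissue, and a gene was called at an unadjusted P under 0.05, the threshold the study used. No member was called after adjustment over all genes in any of the 6 comparisons with edgeR. At the unadjusted threshold edgeR called 1 of 10 members in platelets of S against C group, 1 in O against C and 1 in S against O, and among the 9 tested in PBMCs 0, 1 and 2 in the same order. Over all genes the shares called were 6.42%, 4.79% and 13.9% in platelets and 2.64%, 11.9% and 12.2% in PBMCs, so that 1 of 10 is near the background. DESeq2 called 2, 1, 1, 0, 1 and 2 unadjusted and 1 after adjustment, Thbs1 in PBMCs of S against O group. The shares above are those of edgeR, and that of DESeq2 is not given here, so its counts cannot be set against a background. S against C and S against O share the S group pools, and S against C and O against C share those of C group.

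**Figure D4:**
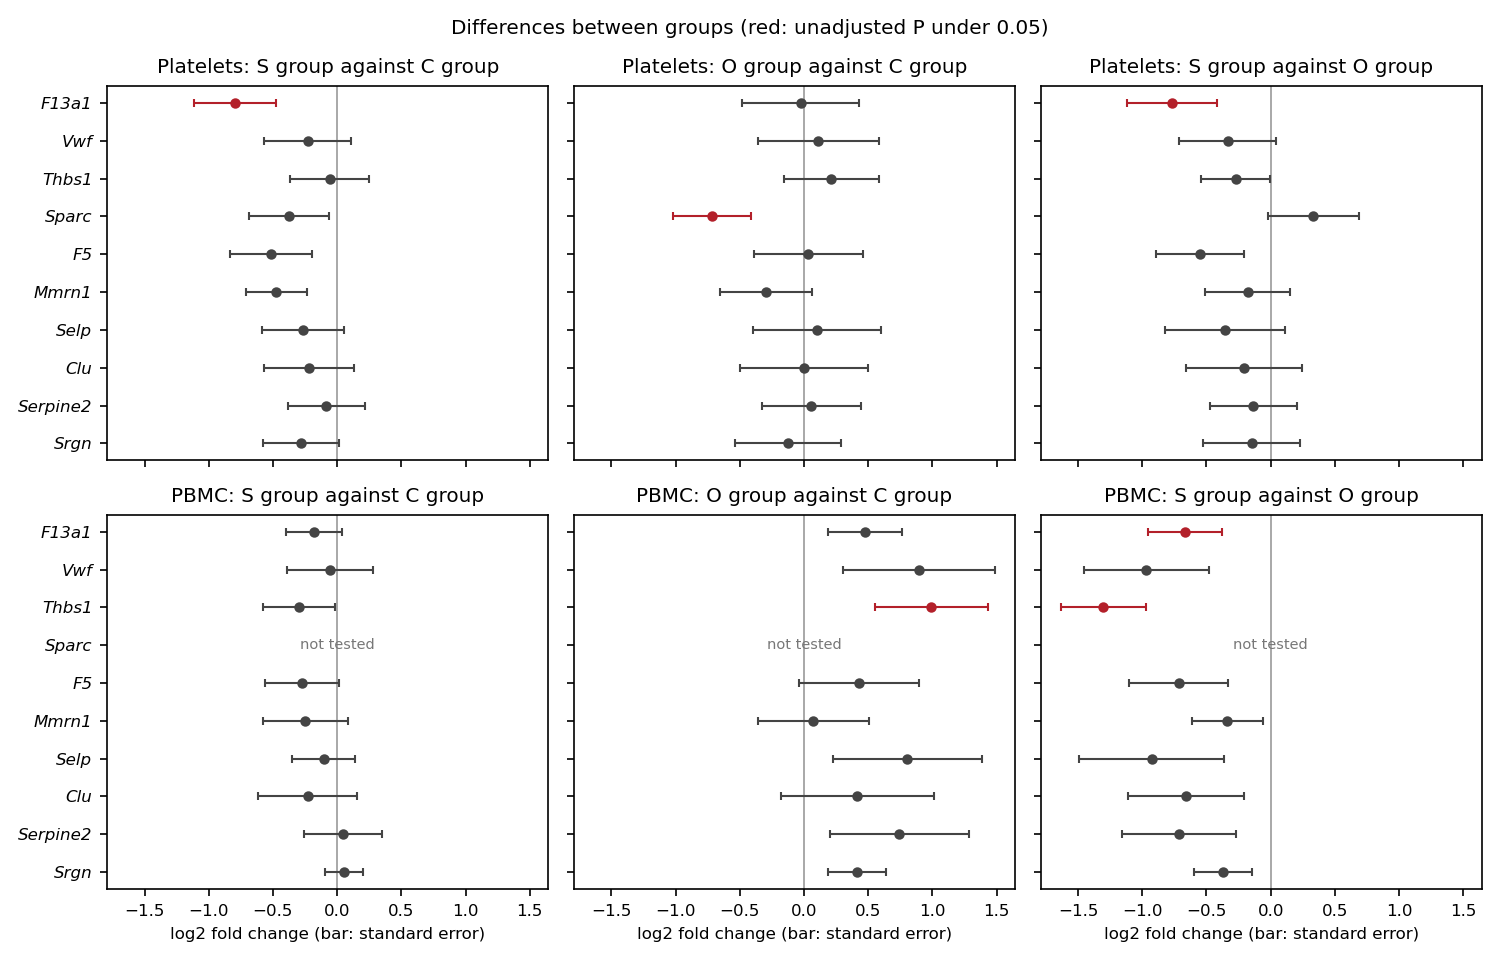
Log2 differences between groups for the 10 genes in platelets and PBMCs, with bars of 1 standard error, called genes (unadjusted P under 0.05) in red. F13a1 is lower in S group platelets than in both other groups, Sparc lower in O group than in C group platelets, and Thbs1 lower in S than in O group PBMCs.

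F13a1 was lower in S group platelets than in both other groups. Its level in the 5 C group pools was 1033, 652, 262, 382 and 357 CPM. In S group it was 278, 328, 398, 221 and 327 CPM, and in O group 671, 650, 294, 845 and 193 CPM. The S group pools thus lay inside the range of O group and in or just under the lower part of that of C group, and the groups overlapped. The log2 difference from C group was -0.80 (SE 0.320, P 0.0258, adjusted P 0.752 in edgeR), beside 6.42% of 13268 genes called at this threshold and 0.00754% after adjustment, and that from O group was -0.77 (SE 0.351, P 0.0494, adjusted P 0.358), beside 13.9% of 13306 genes and 0% after adjustment. Without C group pool 1, which had the highest F13a1 level, the first difference was -0.45 (P 0.0949), and it also missed the threshold without S group pool 1 (-0.76, P 0.0541) or pool 4 (-0.70, P 0.0615). The second was called in 3 of 10 fits with 1 pool left out. Relative to the platelet markers, the log2 ratio of F13a1 was -1.92 ± 0.226 in C group, -2.38 ± 0.336 in S group and -1.87 ± 0.232 in O group (SD, n = 5 each), and on that scale the difference from C group was -0.44 (SE 0.201, P 0.0424) and that from O group -0.50 (SE 0.304, P 0.117). Monocyte and macrophage markers, whose cells also use F13a1, were all detected and summed to 1467 to 3330 CPM in C group, 1074 to 2707 in S group and 610 to 2285 in O group, and their median log2 difference was 0.52 for S against C and 0.62 for S against O, while the mean of their summed level was 2050 CPM in C group, 1819 in S group and 1393 in O group. For S against C the T cell markers lay higher in 6 of 6 (median 0.48, 3 called), the B cell markers in 5 of 6 (2 called), and the erythroid markers lower in 7 of 7 (median -0.62, 0 called by edgeR), and for S against O the neutrophil markers lay lower in 9 of 9 (median -1.87, 5 called). The part of these markers in the F13a1 difference was not tested.

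The other coagulation genes of platelets, F5 and Serpine2, were not called by edgeR in any group comparison. F5 stood at 2011, 1656, 536, 1288 and 1104 CPM in C group, 719, 792, 1248, 680 and 1209 CPM in S group and 1611, 2226, 850, 1541 and 604 CPM in O group. The groups overlapped, and the log2 differences were -0.52 for S against C (SE 0.319, P 0.127) and -0.55 for S against O (SE 0.345, P 0.136). The first reached P 0.0165 without C group pool 3, which had the lowest level (-0.72), and voom with sample quality weights called it too (-0.66, P 0.00841). The second reached P 0.0430 without O group pool 5 (-0.74). For Serpine2, with group means of 77.0, 73.3 and 80.6 CPM in C, S and O group, the differences were -0.08, -0.13 and 0.06 for S against C, S against O and O against C. F13a1 in PBMCs had no such low level in S group against C group: it stood at 276, 212, 168, 345 and 304 CPM in C group and 303, 246, 227, 133 and 229.6 CPM in S group, whose pool 4 lay below the range of C group while the others overlapped it (log2 -0.18, SE 0.218, P 0.424). The test of whether the S against C difference of F13a1 differed between the tissues gave -0.66 (SE 0.506, P 0.203).

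Sparc was lower in O group than in C group platelets. C group pools had 32.3, 41.5, 41.9, 56.1 and 76.1 CPM, S group pools 31.7, 56.6, 49.3, 42.1 and 14.9 CPM, and O group pools 14.8, 38.6, 23.4, 37.6 and 38.3 CPM. O group overlapped the lower end of C group. The log2 difference was -0.72 (SE 0.305, P 0.0366, adjusted P 0.910), and 4.79% of 13270 genes were called at this threshold and 0% after adjustment. It missed the threshold in 5 of 10 fits with 1 pool left out, those without C group pool 2, 4 or 5 or O group pool 1 or 3, the smallest value being -0.50 without C group pool 5 (P 0.119), and on library totals alone it was -0.51 (P 0.220). Of the fibroblast markers 5 of 6 lay lower and 1 was called, Col1a2 (-0.78, SE 0.344, P 0.0425), and of the endothelial markers 8 of 8 lay lower and 1 was called, Robo4 (-0.92, SE 0.342, P 0.0198). Their summed levels were 72.8 to 163 CPM in C group, 34.7 to 136 in S group and 42.1 to 100.4 in O group for fibroblast markers, and 94.0 to 128, 56.5 to 156 and 54.7 to 131 CPM for endothelial markers. In the same comparison B cell markers lay lower in 5 of 6 (3 called), T cell markers lower in 6 of 6 (2 called) and neutrophil markers higher in 9 of 9 (3 called). The part of these markers in the Sparc difference was not tested. Scaled to platelet markers the difference was -0.49 (SE 0.555, P 0.389).

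The adhesive and membrane proteins other than Sparc did not pass in platelets. Mmrn1 came nearest, with 618, 693, 320, 483 and 485 CPM in C group and 349, 382, 526, 253 and 386 CPM in S group, a log2 difference of -0.47 (SE 0.239, P 0.0675) that DESeq2 (P 0.0377), voom with sample quality weights (-0.53, P 0.0107) and the edgeR fits without C group pool 3 (P 0.0152) or S group pool 3 (P 0.0217) called. In O group it ranged from 203 to 784 CPM. The 3 groups overlapped. Vwf had 2310 ± 1196 CPM in C group, 1987 ± 573 in S group and 2514 ± 1278 in O group (SD, n = 5), and Thbs1 1651 ± 785, 1597 ± 364 and 1928 ± 533 CPM, with log2 differences between -0.33 and 0.21 over the 3 comparisons for both genes. Selp had 41.0 ± 17.5, 34.6 ± 14.9 and 44.5 ± 32.2 CPM. Clu, at 4244 ± 1992, 3680 ± 1439 and 4276 ± 2388 CPM, and Srgn, at 1579 ± 600, 1313 ± 464 and 1459 ± 710 CPM, had differences smaller than their standard errors in all 3 comparisons. Over the 10 genes the median log2 difference for S against C was -0.27 with 10 of 10 lower, beside -0.01 over all genes. On library totals alone, or scaled to platelet markers, 4 of the 10 were higher (Clu, Serpine2, Thbs1 and Vwf) and the median was -0.07, while the median gene moved by 0.22 and 0.18. The platelet markers lay lower in 8 of 9, with a median of -0.24, and 0 of them were called by edgeR. For S against O the median was -0.24, 9 of 10 lower (7 on library totals alone and 6 scaled to platelet markers), with platelet markers at -0.30, and for O against C it was 0.02 with 6 of 10 higher.

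In PBMCs Thbs1 was higher in O group than in both other groups. O group pools had 1771, 558, 701, 985 and 417 CPM. C group pools had 312, 427, 189, 788 and 510.3 CPM, and S group pools 334, 384, 372, 298 and 399 CPM. The O and S group pools did not overlap, as was true of 1.87% of 14686 genes, while those of O and C group did. The log2 difference between S and O group was -1.30 (SE 0.333, P 0.00251, adjusted P 0.296), beside 12.2% of genes called at this threshold and 0% after adjustment, and DESeq2 gave an adjusted P of 0.0111. It was called in 10 of 10 fits with 1 pool left out, with values from -1.48 to -0.89, the last without O group pool 1. Against C group the O group difference was 0.99 (SE 0.437, P 0.0451, adjusted P 0.408), beside 11.9% of 14726 genes and 0% after adjustment, and it was called in 3 of 10 fits with 1 pool left out. Without O group pool 1 it was 0.58 (P 0.151), and without C group pools 1, 2, 3 or 5 or O group pools 3 or 4 it lay between 0.80 and 1.07 and missed the threshold too. On library totals alone it was 0.45 (P 0.181), and the median gene then moved by -0.37.

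**Figure D5:**
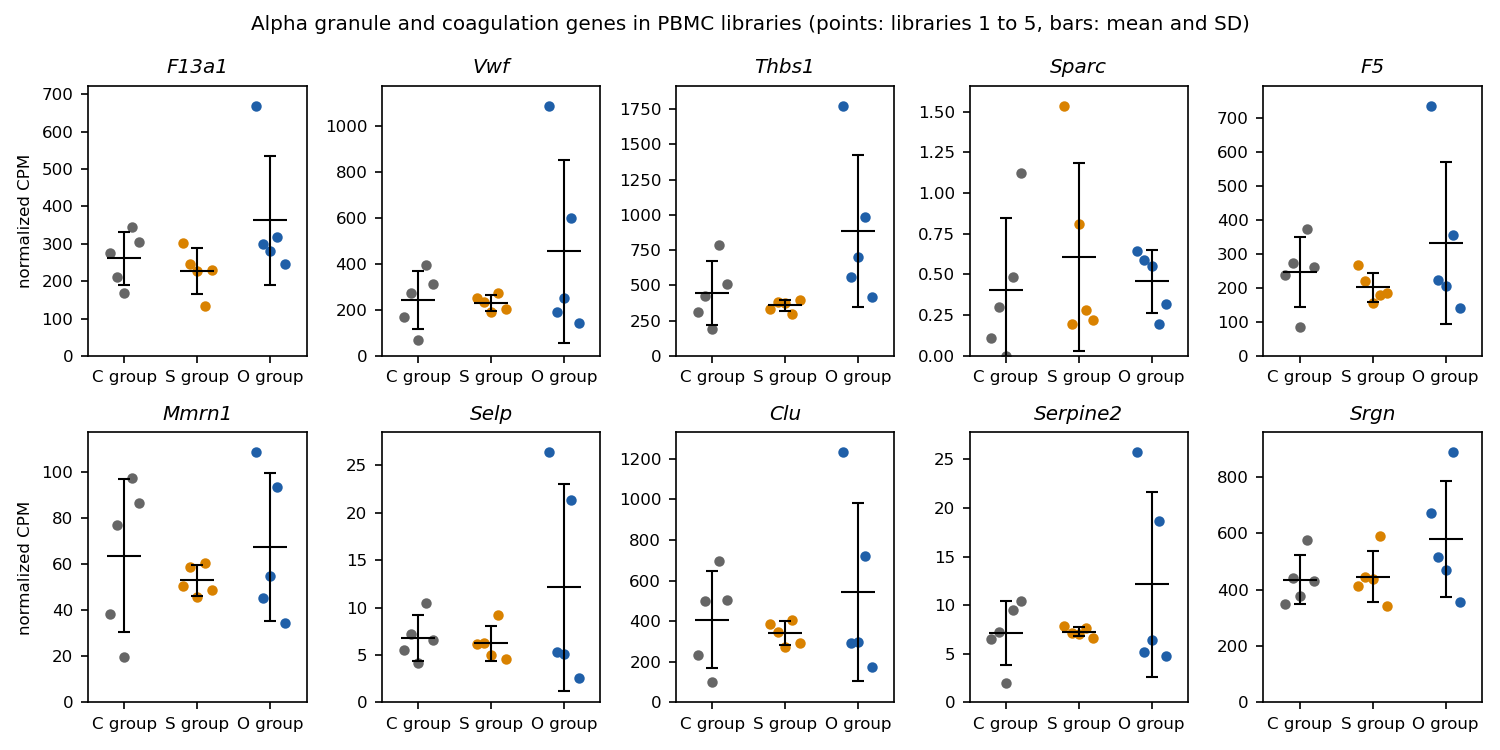
Level of each of the 10 genes in the 15 PBMC libraries, as TMM-normalized CPM on a linear axis, by group (5 pools each, points) with bars for the group mean and SD. O group pool 1 is the highest library for Thbs1 (1771 CPM) and F13a1 (669 CPM), and Sparc is near 0 throughout.

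Platelet, red cell and neutrophil RNA moved with these values, and their part in them was not tested. Platelet markers summed to 741 to 4414 CPM in C group, 1856 to 2577 in S group and 1340 to 10220 in O group PBMCs, with 8 of 9 markers lower in S than in O group (median log2 difference -0.89) and 1 called, P2ry12, which was higher in S group (0.50, SE 0.155, P 0.00802). Of 7 erythroid markers 7 were called higher in O than in C group (median 2.82) and 7 lower in S than in O group (median -2.63), 6 of 6 NK cell markers were called higher in S than in O group, and O group pool 1 had a hemoglobin share of 24.5%. Neutrophil markers were 10 of 10 higher in O than in C group (median 1.46, 1 called) and 10 of 10 lower in S than in O group (median -1.28, 3 called), and their summed level was highest in O group pools 1 and 4, at 7084 and 5580 CPM, the pools that were also highest for Thbs1. Scaled to platelet markers, the Thbs1 difference between S and O group was -0.76 (P 0.104) and that between O and C group 0.61 (P 0.382). Its log2 ratio to the platelet markers was 1.21 ± 0.371 in C group, 1.07 ± 0.361 in S group and 1.83 ± 0.338 in O group (SD, n = 5). The test of whether the S against O difference of Thbs1 differed between the tissues gave 0.86 (SE 0.494, P 0.0915) with edgeR and 1.02 (P 0.0439, adjusted P 0.333) with DESeq2.

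F13a1 was the other member called in PBMCs. Its O group pools had 669, 298, 280.4, 319 and 247 CPM, and the difference of S from O group was -0.67 (SE 0.290, P 0.0423, adjusted P 0.387). Of the monocyte markers 8 of 10 lay lower in S than in O group (median -0.24) and 1 was called, Itgam (-0.42, SE 0.166, P 0.0277), and their part in the F13a1 value was not tested. The pools of S group overlapped those of O group, and without O group pool 1 the difference was -0.33 (P 0.119), while it also missed the threshold without S group pool 2, 3, 4 or 5. On library totals alone it was -0.18 (P 0.397). Vwf had 1089, 190.5, 253, 599 and 143 CPM in O group against 70.2 to 394 CPM in C group and 191 to 275 in S group, and its differences of -0.97 (SE 0.486, P 0.0725) for S against O and 0.90 (SE 0.594, P 0.160) for O against C did not pass, though the first did with all genes of at least 1 count (P 0.0299) and without O group pool 2 (P 0.0345) or pool 5 (P 0.0205). All 9 tested members shared this shape, with pools 1 and 4 the 2 highest of O group: Clu had 1231 and 721 CPM there, Selp 26.4 and 21.3, Serpine2 25.7 and 18.7, F5 735 and 356, Mmrn1 109 and 93.9, and Srgn 671 and 887. Srgn ranged from 343 to 887 CPM over all 15 libraries, F5 from 85.6 to 735 and Mmrn1 from 19.8 to 109. Over the 9 genes the median log2 difference was 0.47 for O against C, with 9 of 9 higher, and -0.71 for S against O, with 9 of 9 lower, while on library totals alone or scaled to platelet markers 4 of 9 were higher in the first and 7 of 9 lower in the second. For S against C, where edgeR, DESeq2 and voom called 0 of 9 members and 2.64% of 15139 genes were called by edgeR (0.033% after adjustment), the median was -0.18. Sparc was too low to be tested in these comparisons.

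Of the tests of whether a group difference itself differed between platelets and PBMCs, none of the 9 genes other than Sparc, which was too low in PBMCs to compare, passed for S against C, O against C or S against O with edgeR, beside 5.38%, 6.59% and 13.6% of 16498 genes called (0% each after adjustment). DESeq2 called 0, 0 and 1, and its share over all genes is not given here.

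Other genes of the same systems were taken from lists by role. Of 25 further alpha granule cargo genes, 21 were tested between tissues, and 15 were higher in platelets and 4 in PBMCs, among them Ecm1 (4.07, SE 0.221), Gas6 (6.42, SE 0.353) and the chemokine gene Cxcl5 (4.69, SE 0.266), on the log2 scale. Of 19 tested coagulation and fibrinolysis genes 9 were higher in platelets, such as Pros1, protein S (3.47, SE 0.221), and 9 in PBMCs, such as Plaur, the urokinase receptor (-2.81, SE 0.213), and Lman1, a carrier of factors V and VIII out of the endoplasmic reticulum (-1.53, SE 0.102). Of 10 receptors and partners of the 10 genes 6 were higher in platelets, including Gp5 (3.92, SE 0.284) of the von Willebrand factor receptor and the integrin chain Itgb3 (3.63, SE 0.271), and 2 were lower, including the endocytic receptor Lrp1 (-3.08, SE 0.209). Of 11 granule biogenesis and megakaryocyte transcription factor genes 9 were higher in platelets, including Gfi1b (3.79, SE 0.247) and Tal1 (3.70, SE 0.257), and 2 lower, including Nbeal2, needed for alpha granule formation (-1.12, SE 0.0910). Some genes of these lists, as Sparc did, passed the filter only through the platelet libraries where they are high (16 to 17 cargo genes were tested within PBMCs, for instance). These counts, and the differences of the genes named, are therefore a description with no test. The counts are of genes with an adjusted P under 0.05, which 81% of all genes tested had, 5907 higher and 7457 lower in platelets.

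Between groups few of these genes passed in platelets, all at the unadjusted threshold, at which 6.42% of all genes were called for S against C, 4.79% for O against C and 13.9% for S against O. For S against C, 1 of 20 cargo genes was higher, Serping1, the C1 inhibitor (0.80, SE 0.349, P 0.0374), and edgeR called 0 of 15 coagulation genes, 0 of 11 biogenesis genes and 0 of 10 receptors. For O against C, Nbeal2 was higher (0.46, SE 0.190, P 0.0329), the coagulation factor X gene F10 was higher (1.49, SE 0.661, P 0.0435) and Mcfd2, partner of Lman1, was lower (-0.53, SE 0.237, P 0.0452), each the only call of its direction in its list. Neutrophil markers had a median of 1.86 in that comparison, with 3 of 9 called. For S against O, 2 of 18 cargo genes, 4 of 12 coagulation genes, 1 of 11 biogenesis genes and 0 of 10 receptors were called. The cargo genes Serping1 (1.24, SE 0.382, P 0.00692) and Pdgfa (1.07, SE 0.398, P 0.0200) and the coagulation genes Mcfd2 (0.92, SE 0.275, P 0.00560), Thbd (0.60, SE 0.220, P 0.0183) and Lman1 (0.61, SE 0.224, P 0.0188) were higher. F10 was lower, and so was Zfpm1, a cofactor of GATA factors (-1.06, SE 0.428, P 0.0293). B cell markers (5 of 6) and T cell markers (5 of 6) were called higher in S than in O group platelets.

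In PBMCs, where 11.9% of all genes were called in O against C, 12.2% in S against O and 2.64% in S against C, these lists had more calls in the comparisons with O group. Against C group, 4 of 17 cargo genes were higher, among them Vegfa (1.09, SE 0.380, P 0.0158), App (0.52, SE 0.183, P 0.0162) and Tgfb1 (0.37, SE 0.152, P 0.0348), with Fn1 as the other, as were Plaur (0.60, SE 0.268, P 0.0491) of 14 coagulation genes and, of 10 receptors and partners, Lrp1 (0.35, SE 0.133, P 0.0223) and Cd36 (1.69, SE 0.639, P 0.0233), a receptor for thrombospondin-1. In S against O, 4 of 16 cargo genes were lower, among them App (-0.60, SE 0.161, P 0.00343), Pros1 (-0.77, SE 0.298, P 0.0257) and Tgfb1 (-0.38, SE 0.150, P 0.0276), 2 of 13 coagulation genes, F10 (-0.84, SE 0.248, P 0.00613) and Pros1, and 4 of 10 receptors and partners, among them Lrp1 (-0.60, SE 0.184, P 0.00795), Cd36 (-1.63, SE 0.631, P 0.0256) and Cd47 (-0.33, SE 0.137, P 0.0336), with Fn1 and Itgb3 as the remaining cargo and partner gene. For S against C the 1 call over these 4 lists was F7, factor VII, lower at -0.89 (SE 0.346, P 0.0243) with means of 0.827 and 1.55 CPM. F10 in platelets and Fn1 and Itgb3 here lay outside the rule for naming genes, and were named after their values were seen. T cell markers were lower in O group PBMCs in both comparisons, with 6 of 6 called.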

How the data were processed

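Platelet and PBMC RNA of 3 groups was sequenced as 30 pooled libraries, 5 per group and tissue, with a poly-T kit whose strandedness is not given in the sources used here. The authors aligned reads with HISAT2 2.0.5 and counted them per gene with featureCounts 1.5.0-p3, and the deposited values are these raw counts, not normalized. The submitters' processing notes list build mm9, but the gene identifiers and the gene positions in the study's supplement are those of GRCm38, which is used here. Groups and tissues come from the sample titles, because platelet samples carry PBMC as their cell type in the labels. The members and lists were chosen with earlier results of these data known.

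Each pair of groups was fitted alone within a tissue on all genes that passed filterByExpr, with TMM factors and the two-sided quasi-likelihood F test of edgeR 4.0.16 (limma 3.58.1, R 4.3.3), and P was adjusted by Benjamini-Hochberg over all genes tested. The study used DESeq2 1.16.1, and DESeq2 1.42.0 was an alternative here. Correlations used scipy 1.17.1 with 100000 resamples. Fits were tested on simulated counts. No replicate pair agreed within sampling noise, the smallest chi-square per degree of freedom being 10.2. Same-numbered pools deviated together in PBMCs of S and C group (r 0.256 to 0.555), which counted as pairing. The other pairs of groups within a tissue were not counted as paired, though some of their pools correlated too. In PBMCs r was 0.0268 to 0.384 for S and O group and -0.0822 to 0.511 for C and O group. In platelets it was -0.139 to 0.525 for C and O, -0.185 to 0.253 for C and S, and -0.241 to 0.276 for S and O group. Whether these pools were paired is not known. Same-numbered O group pools of platelets and PBMCs had equal pool sizes and also deviated together (r 0.103 to 0.654), so the tests over all 30 libraries treat as independent some libraries that may share mice. Beyond the 10 members, up to 3 genes per list and comparison are named, those with the smallest P among the called, and the 3 most alike to a member by r, of which 1 is not reported here. Of 164 list symbols 163 were matched.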

Additional observations from a re-analysis of the deposited data

Results flagged for a closer look

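Over 60 sets of 5 pools (10 genes, 3 groups, 2 tissues), 2 held a pool whose gap to its nearest neighbour passed Dixon's 95% critical value of 0.71 as a share of the range, and chance flags about 1 in 20. Vwf stood at 2967 CPM in S group platelet pool 3, where the other 4 pools lay between 1452 and 1869 CPM. F13a1 stood at 669 CPM in O group PBMC pool 1, where the other 4 lay between 247 and 319 CPM. That library also had the highest hemoglobin share of the PBMC libraries, 24.5%, and a TMM factor of 0.551.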

How the results depend on the processing

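Counts of called members were small, so single genes moved them. Calls over all genes changed with the setting too. In platelets of S against C they were 569 higher and 283 lower in the main fit, 1367 and 32 on library totals alone, and 484 and 26 scaled to platelet markers. The share over all genes is not given for each setting, so the member counts below cannot be set against a background. In platelets, S against C called 1 member and gave 2 with DESeq2, 3 with voom and sample quality weights, 0 with the replicate block, 0 with all 3 groups in one fit, and 0 to 3 with 1 pool left out. O against C called 1 and gave 0 on library totals alone, 0 with all 3 groups in one fit, 0 scaled to platelet markers, and 0 to 1 with 1 pool left out. S against O called 1 and gave 0 with RLE size factors, library totals alone, voom, the replicate block, all 3 groups in one fit or scaling to platelet markers, and 0 to 2 with 1 pool left out. In PBMCs, S against C called 0 and gave 0 to 3 with 1 pool left out, the 3 without C group pool 3. O against C called 1 and gave 0 on library totals alone, with voom, with the replicate block or scaled to platelet markers, and 0 to 2 with 1 pool left out. S against O called 2 and gave 4 with all genes of at least 1 count, 3 with the replicate block, which added Srgn (-0.33, P 0.0287), 1 on library totals alone, 0 scaled to platelet markers, and 1 to 8 with 1 pool left out, the 8 without O group pool 5. The difference between tissues of S against O called 0 and gave 1 with DESeq2 and 0 to 1 with 1 pool left out, and that of S against C 0 to 1, the 1 being Sparc, which was too low in PBMCs to compare.

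The replicate block made F13a1 in platelets -0.65 for S against C and -0.62 for S against O, and in PBMCs it changed no call of S against C, the comparison whose numbers counted as pairing. Counting Sparc, whose call is no test, the tissue comparison called 10 members and 6 scaled to platelet markers, where by that construction the direction turned for F13a1 (-2.67), Vwf (-0.14), Thbs1 (-1.40), F5 (-0.91), Mmrn1 (-0.27), Selp (-0.87) and Srgn (-1.79). Of all values under other settings 689 stayed on their side of the threshold, 77 of them uncalled and of changed sign, 20 lost their call and 7 gained one, and with 1 pool left out these numbers were 1723, 110, 27 and 20. The cause of the other changes was not tested.

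Scaling also moved the split over all genes. Of the genes called, the higher share was 66.8% in platelets of S against C (97.7% on library totals alone, 94.9% scaled to platelet markers), 54.6% for O against C (87.0%, 90.5%) and 52.0% for S against O (73.3%, 38.7%), and in PBMCs 46.5% (32.7%, 35.7%), 63.3% (7.43%, 91.3%) and 36.2% (91.1%, 9.5%) in the same order. Between tissues it was 44.2% (15.6%, 1.71%). The median gene then moved by -0.39 to 0.36 (log2) in the group comparisons, and between tissues by -1.21 and -4.48. Depth limits Sparc in PBMCs, with at most 27 counts a library, and less so Serpine2 and Selp.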
